A study of Homo sapiens with 6 samples.

Results

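The sites described here carried a Myc peak in both TXNIP-knockout libraries and in exactly 1 of the 2 parental libraries, so that the parental cells gave them an unreplicated call. Peaks of the 4 lists that overlapped by at least 1 bp were merged into 33436 sites, and 18611 of these had a peak in both knockout lists. Of the 18611, 2495 had a peak in exactly 1 parental list, a share of 13.4%. The parental peak came from replicate 1 at 699 sites, 3.76% of the 18611, which are called P1 sites here. It came from replicate 2 at 1796 sites, 9.65% of the 18611, called P2 sites. They were set beside 2631 sites with a peak in every list (all-4 sites) and 13485 sites with a peak in both knockout lists and in no parental list (TKO-alone sites). The members were chosen by peak calls measured in these same 4 libraries, so the number of sites, peak strength and read numbers are given below as a description, with no test.

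Myc was immunoprecipitated with the Cell Signaling antibody D3N8F from MDA-MB-231, a human triple-negative breast cancer cell line, and from a derivative without TXNIP, the thioredoxin interacting protein. Parental 231 cells were unedited, and the 231:TKO cells were made with CRISPR-Cas9 and isolated as clones from single cells, so that the effect of the deletion and of the clone cannot be told apart. Each of these groups had 2 Myc libraries, described in the study as biological replicates, and 1 input chromatin library, for which no peak list was analysed here. Both groups therefore share the cell line, the antibody and the peak caller, and they differ in TXNIP. Peak lists hold no expression values, so neither the loss of TXNIP nor the identity of the line could be checked from them.

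Myc is a basic helix-loop-helix leucine zipper protein that binds DNA as a dimer with Max, with the E-box CACGTG as its preferred site. It is mostly found at active promoters in CpG islands, where genes of ribosomes, translation and nucleotide synthesis are among its best known targets. It is also found at enhancers, which in basal breast cancer cells are often bound by AP-1, a dimer of FOS and JUN proteins that reads TGACTCA or its reverse complement TGAGTCA.

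Letters from strong sites with a motif show how the E-box looked at the summit of the peak. They are read from GRCh37 on the plus strand, at the summit in TKO replicate 1, and capitals mark the motif. Windows that touch an untranslated region are cut to 30 bases around the motif. The names are those of the nearest protein-coding start site. The choice left out a chromosome named with the processing steps. Among the remaining P1 sites with an E-box, the 4 of highest rank in the TKO lists lay at RAD50, a DNA repair protein, at PMS1, a mismatch repair protein, at TENT5B and at COMTD1:
RAD50, chr5:131892656-131892685: ggcctagaggccCACGTGatccgcagggcg
PMS1, chr2:190649460-190649489: tgcgggcgcgcaCACGTGgaacgcgttttc
TENT5B, chr1:27358115-27358215: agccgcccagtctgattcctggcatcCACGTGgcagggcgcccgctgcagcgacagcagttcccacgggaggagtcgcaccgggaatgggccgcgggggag
COMTD1, chr10:76995292-76995392: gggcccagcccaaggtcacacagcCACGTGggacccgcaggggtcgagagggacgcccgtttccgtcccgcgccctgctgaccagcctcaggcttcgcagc
The P2 sites with an E-box chosen in the same way lay at CDH24, a cadherin, at GSE1, at USP3, a deubiquitinase, and at TRIP6, a LIM domain protein of cell adhesions:
CDH24, chr14:23531525-23531554: tgcaacccttccCACGTGctgcaacaccct
GSE1, chr16:85450076-85450176: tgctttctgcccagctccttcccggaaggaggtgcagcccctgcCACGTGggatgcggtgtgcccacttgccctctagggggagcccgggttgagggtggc
USP3, chr15:63796180-63796280: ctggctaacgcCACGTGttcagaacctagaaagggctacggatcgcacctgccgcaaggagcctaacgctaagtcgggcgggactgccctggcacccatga
TRIP6, chr7:100464733-100464833: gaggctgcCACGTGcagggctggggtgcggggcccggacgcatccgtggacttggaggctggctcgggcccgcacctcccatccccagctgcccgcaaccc
The distances from the start site differed within both sets. The RAD50 summit was 9 bp and the COMTD1 summit 373 bp from a start site, against 18824 bp at TENT5B. In the P2 set, the TRIP6 summit was 226 bp and the GSE1 summit 194889 bp away, within an intron.

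The sites with an AP-1 motif are shown because this motif separated the 2 kinds of member. Chosen in the same way, the strongest P1 sites that held it were near IRF2BP2, a transcriptional corepressor, TMED10, a cargo receptor of the early secretory pathway, and ENO3, an enolase:
IRF2BP2, chr1:234743937-234744037: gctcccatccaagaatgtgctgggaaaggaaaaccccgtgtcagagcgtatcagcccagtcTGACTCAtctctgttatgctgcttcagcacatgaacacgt
TMED10, chr14:75643340-75643440: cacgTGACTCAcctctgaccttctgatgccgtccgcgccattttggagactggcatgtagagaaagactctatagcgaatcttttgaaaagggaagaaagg
ENO3, chr17:4853101-4853201: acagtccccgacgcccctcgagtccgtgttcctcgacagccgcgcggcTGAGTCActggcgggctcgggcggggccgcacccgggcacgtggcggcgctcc
The P2 sites so chosen were near DYRK1A, a protein kinase, SLCO2B1, an organic anion transporter, and KRT7, a keratin of simple epithelia:
DYRK1A, chr21:38711022-38711122: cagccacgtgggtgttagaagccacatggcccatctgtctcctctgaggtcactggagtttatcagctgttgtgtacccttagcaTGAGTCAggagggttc
SLCO2B1, chr11:74854354-74854454: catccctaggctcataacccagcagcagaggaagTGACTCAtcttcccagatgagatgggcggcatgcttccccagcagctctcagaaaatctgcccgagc
KRT7, chr12:52609420-52609520: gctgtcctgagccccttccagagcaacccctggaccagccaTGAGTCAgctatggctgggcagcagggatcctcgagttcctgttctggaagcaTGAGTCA
At TMED10 the E-box and the AP-1 motif shared 2 bases, so the first letters of that window, cacgTGACTCA, complete both. The KRT7 window held 2 copies of the AP-1 motif, and the ENO3 and DYRK1A windows held an E-box in lower case as well. The 3 P2 summits were 7702 to 27020 bp from a start site, and the 3 P1 summits were 75 to 1284 bp away.

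The 2 parental lists differed in length and in makeup before any merging. Parental replicate 1 held 3720 peaks with a median GC content of 61.2% and with 60.1% of summits within 1 kb of a protein-coding start site. Parental replicate 2 held 5719 peaks with a median GC content of 57.2% and with 41.0% at promoters. The TKO lists held 27213 and 25887 peaks. The depth recovered from the peak values, under assumptions given with the ratios, was higher in the parental pair (26.4 M and 22.2 M reads) than in the TKO pair (19.9 M and 13.0 M). The weakest listed peaks stood on 13 and 10 summit reads in the parental lists and on 9 and 7 in the TKO lists. Because P1 and P2 sites differ in the parental library by definition, a difference between them and a difference between those 2 libraries cannot be told apart.

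An unreplicated parental call was more often joined by TKO calls when it came from replicate 1. In the list of replicate 1, 756 of 3531 sites (21.4%) had no peak in replicate 2. Of the 756, 699 had a peak in both TKO lists, which is 92.5%. In the list of replicate 2, 2741 of 5516 sites (49.7%) had no peak in replicate 1. Of the 2741, 1796 had a peak in both TKO lists, which is 65.5%. These shares come from the calls that define the members and are a description. They were not recomputed with parental lists of equal length. A peak in 1 TKO list only was found at 35 and 479 of the unreplicated sites, and in 33 and 409 of those cases the list was TKO replicate 1. No TKO list had a peak at 22 and 466 of them. The unreplicated parental calls that did not reach both TKO lists were of another makeup than the members: the 945 such sites of replicate 2 had a median GC content of 47.8%, with 6.03% at promoters and an AP-1 motif at 20.4%. The 57 such sites of replicate 1 had a median GC content of 46.8%, with 17.5% at promoters and an AP-1 motif at 24.6%.

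The division into P1 and P2 followed the length of the parental lists. When parental replicate 2 was reduced to its 3720 most significant peaks, the same merging gave 1192 P1 and 913 P2 sites, so the order of the 2 counts turned. Requiring a fold of at least 5 in every list left 640 P1 and 802 P2 sites. The parental peak that was missing did not usually lie close by. Measured from the edge of the merged site, the nearest peak of the other parental list was a median of 73195 bp away for P1 sites and 86979 bp for P2 sites. It was within 500 bp at 18 P1 sites (2.58%) and 24 P2 sites (1.34%), and the smallest distances were 106 and 136 bp. An all-4 site lay within 10 kb of 54 P1 sites (7.73%) and 197 P2 sites (10.97%).

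The members just inside the rule included a pair at 1 locus. Near IRF2BP2, a P2 site 9112 bp from the start had its parental peak at chr1:234736028-234736183, and a neighbouring P1 site 9641 bp from the start had its parental peak at chr1:234735507-234735790. The gap from the edge of each merged site to a peak of the other parental list was 136 and 106 bp. A P1 site in an intron of PDE7B, a cyclic nucleotide phosphodiesterase, fell between these 2 in order, with a gap of 125 bp. Just outside the rule were all-4 sites whose parental peaks did not touch each other and were joined by a wide TKO peak, as at PHLDA2, PSMA3 and RMND5A, where 695, 666 and 616 bp separated the parental peaks. Of 2544 all-4 sites whose peaks were checked for this, 29 were joined in that way.

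In strength the members stood between the sites they were compared with. Each peak was ranked by the authors' fold enrichment, the ratio of summit reads to local background, as a percentile within its own list. In TKO replicate 1 the median percentile was 84.1 at P1 sites and 68.2 at P2 sites, against 92.4 at all-4 sites and 51.2 at TKO-alone sites. In TKO replicate 2 the medians were 83.6, 67.4, 91.8 and 52.5. A percentile of 90 or more in TKO replicate 1 was reached by 240 P1 sites (34.3%) and 273 P2 sites (15.2%). In the parental list that called them, the members ranked low, with a median percentile of 40.6 for P1 sites in replicate 1 and 35.7 for P2 sites in replicate 2, where all-4 sites had medians of 55.6 and 64.1. Parental folds reached 11.3 at P1 sites and 10.3 at P2 sites, with medians of 5.08 and 4.66 and with median summit reads of 26.0 in both.

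**Figure D1:**
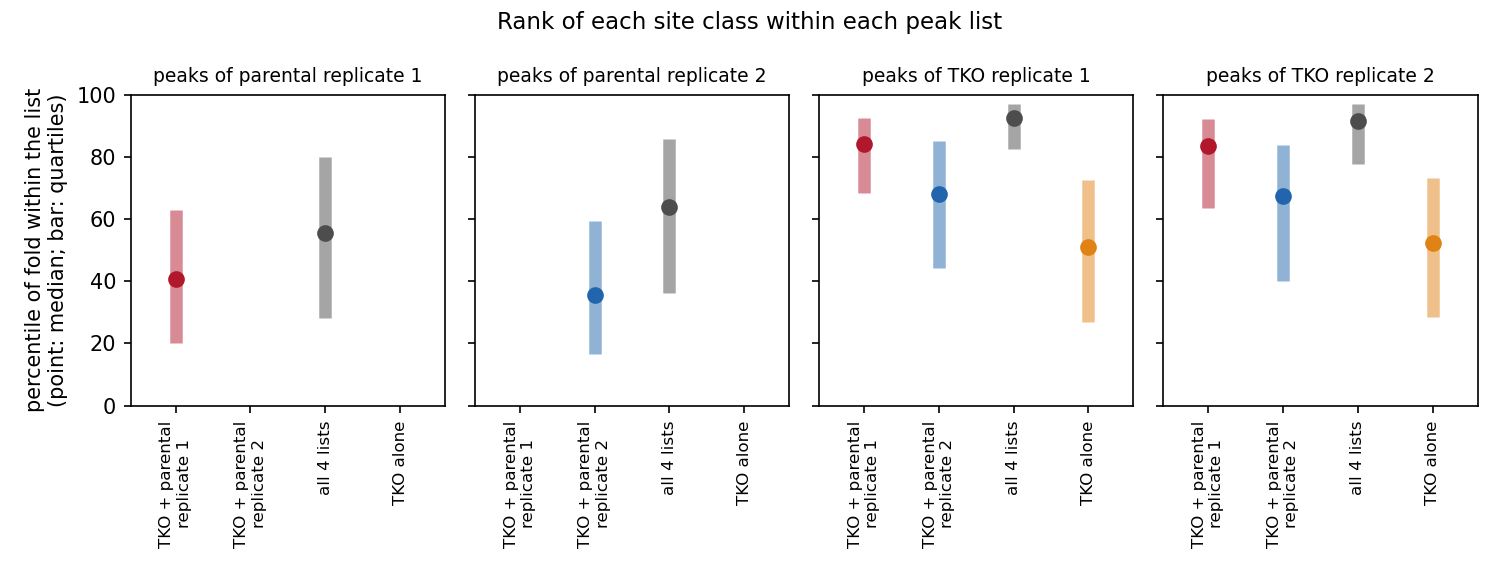
Percentile of the authors' fold within each of the 4 peak lists (vertical axis) for P1, P2, all-4 and TKO-alone sites, with the median as a point and the quartiles as a bar. In both TKO lists the order of the medians was all-4 (92.4 and 91.8), P1 (84.1 and 83.6), P2 (68.2 and 67.4) and TKO-alone sites (51.2 and 52.5).

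Summit reads per recovered depth, not corrected for read extension, were higher in TKO at nearly every member. The ratio of TKO to parental summit reads had a median of 2.15 (TKO replicate 1) and 2.50 (TKO replicate 2) at P1 sites, and of 1.64 and 1.95 at P2 sites. The all-4 sites lay between 2.19 and 2.63 over the 4 pairs of libraries. The ratio was below 1 at 6 and 3 of the 699 P1 sites and at 94 and 37 of the 1796 P2 sites. The recovery of depth took the narrowest peak of a list as the length to which reads were extended, an assumption, at 140 and 151 bp in the parental lists and more in TKO. These lengths enter the depths and the ratios and were not corrected for.

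The summits of members were placed less tightly than those of all-4 sites. From the parental to the TKO replicate 1 summit the median distance was 41.0 bp at P1 sites and 42.0 bp at P2 sites. At all-4 sites it was 33.0 bp from either parental replicate. Between the 2 TKO summits it was 38.0 bp at P1, 43.0 bp at P2, 30 bp at all-4 and 54.0 bp at TKO-alone sites. All of these are descriptions, since the calls that chose the sites also set the reads at their summits.

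Position in the genome separated the 2 kinds of member. Promoter sites are those whose TKO summit lay within 1 kb of a protein-coding start site. At P1 sites 74.8% were promoter sites in either TKO list (95% interval 71.4 to 78.0), against 33.2% (31.0 to 35.4) at P2 sites in TKO replicate 1 and 33.4% (31.2 to 35.6) in TKO replicate 2. The difference was 41.6 percentage points (Newcombe 95% interval 37.6 to 45.4), with an adjusted p of 1.68e-78 by Fisher's exact test, and 41.5 points (37.5 to 45.2, adjusted p = 2.72e-78) in TKO replicate 2 by the same exact test. The comparison classes fell between them, with 58.5% and 58.7% at all-4 sites and 48.2% in both lists at TKO-alone sites, and each differed from P1 and from P2 in both lists (largest adjusted p = 3.43e-15, Fisher's exact test). In TKO replicate 1 the P2 share minus the all-4 share was -25.4 points, and minus the TKO-alone share -15.0 points. Sites are not replicates, so these p-values describe the 4 lists and not new cultures, and intervals cover counting error only.

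The distance to the nearest start site had a median of 231 bp at P1 sites and 9164 bp at P2 sites in TKO replicate 1. It was 382 bp at all-4 sites and 1225 bp at TKO-alone sites. From 10 to 100 kb away lay 37.3% of P2 sites and 14.3% of P1 sites, and over 100 kb away lay 11.4% and 3.72%. By annotation, 45.8% of P2 summits were intergenic and 35.6% intronic in TKO replicate 1. Of P1 summits 34.3% were intergenic, 29.5% intronic and 23.3% in an untranslated region. Coding sequence held 8.44% of P1 and 3.23% of P2 summits.

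**Figure D2:**
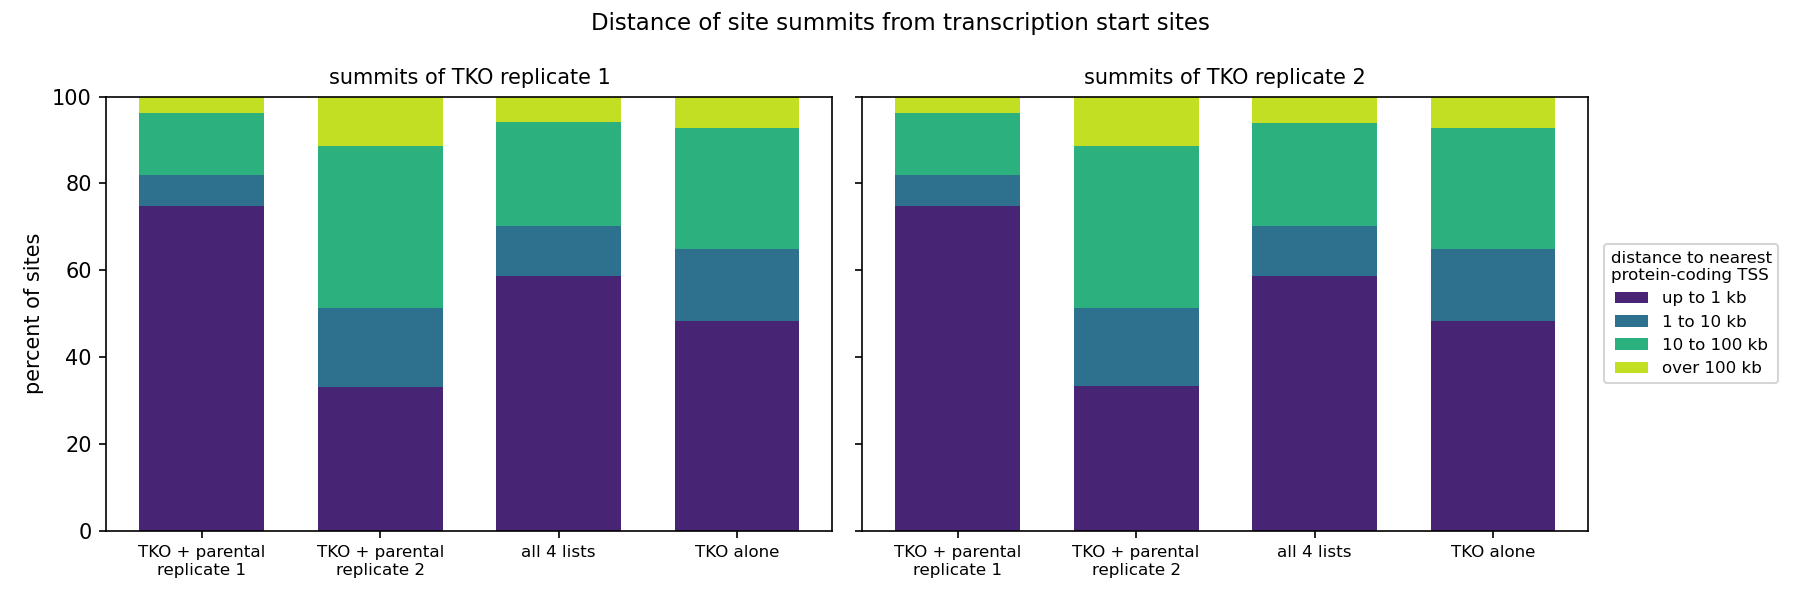
Percent of sites (vertical axis) in 4 bins of distance from the TKO summit to the nearest protein-coding transcription start site (TSS), for each class and each TKO list. The bin up to 1 kb holds 74.8% of P1 sites and 33.2% and 33.4% of P2 sites, with all-4 and TKO-alone sites between them.

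The difference in promoter share held at matched strength. Sites in the strongest quintile of TKO replicate 1 by fold were promoter sites in 82.4% of 414 P1 sites, 41.7% of 609 P2 sites, 64.7% of 2056 all-4 sites and 64.3% of 2110 TKO-alone sites. In the quintile ranked 2 from below, the shares were 62.8% of 43 P1 and 25.1% of 231 P2 sites. Over 10 strata of fold in the TKO list, the P1 share exceeded the P2 share by 36.1 points and the all-4 share by 22.8 points (means of the 2 TKO lists). The P2 share minus the all-4 share was -11.6 points in that setting and -25.3 points without it. With parental lists of equal length, the P1 share was 40.8 points above the P2 share.

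**Figure D3:**
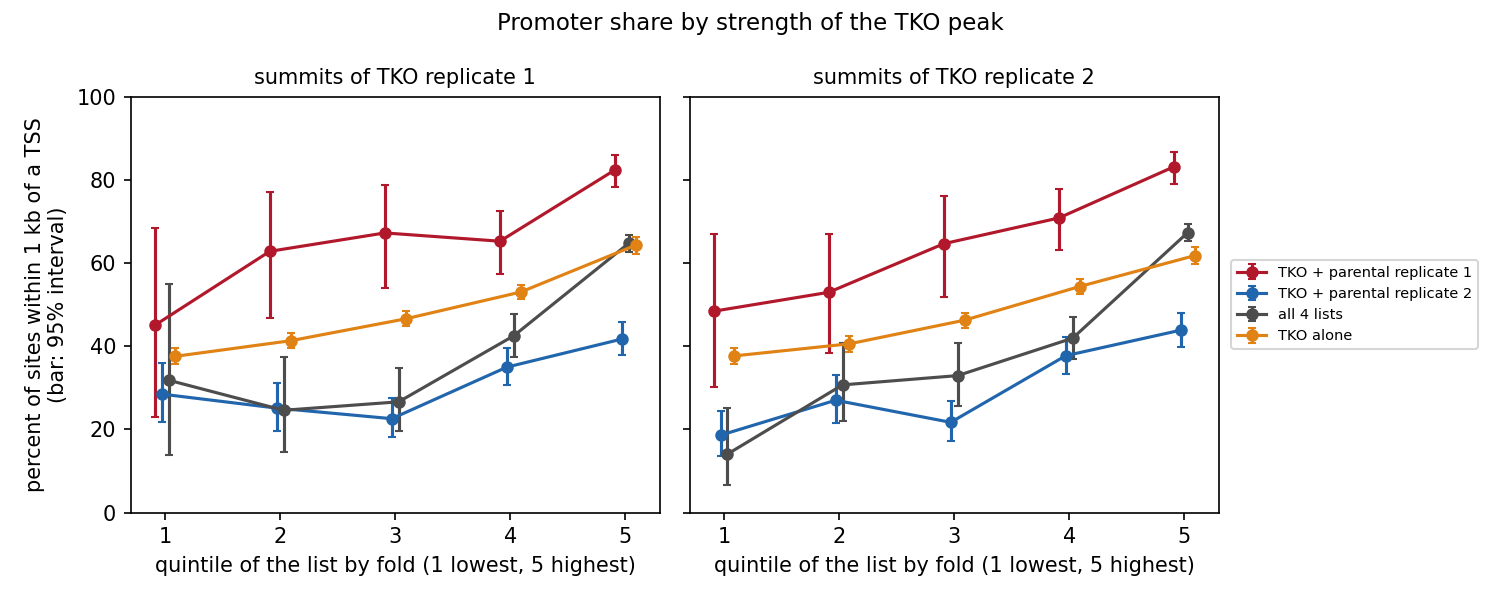
Percent of sites within 1 kb of a start site (vertical axis, bars for 95% Clopper-Pearson intervals) in quintiles of each TKO list by fold, from the lowest to the highest, for the 4 classes. In TKO replicate 1 the P1 sites are at 45.0% in the lowest quintile, which holds 20 of them, and at 82.4% in the highest, and the P2 sites at 28.5% and 41.7%.

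Base composition differed as well. GC content within 100 bp of the summit had a median of 63.7% at P1 sites and 57.7% at P2 sites in TKO replicate 1, against 61.2% at both all-4 and TKO-alone sites. In the flanks 1 kb to either side the 4 medians were within 48.3% and 50.3%. The ratio of observed to expected CpG at the summit, which is high in CpG islands, had a median of 0.797 at P1 and 0.433 at P2 sites. Sites of at least 60% GC made up 70.1% of P1 sites and 40.5% of P2 sites in TKO replicate 1, a difference of 29.6 points (25.4 to 33.6, adjusted p = 3.39e-40, Fisher's exact test), and 72.3% and 43.0% in TKO replicate 2. The all-4 sites (56.4% and 59.8%) and TKO-alone sites (55.3% and 57.7%) lay between, and every one of these differences passed in both lists. With a threshold of 50% in place of 60% the P1 sites were 6.18 points above the P2 sites, 3.97 points above all-4 and 2.38 points above TKO-alone sites, all of which passed. The P2 share minus the TKO-alone share, -3.80 points, also passed. The P2 share minus the all-4 share, -2.21 points, did not (adjusted p = 0.121, Fisher's exact test). At matched strength the P1 sites stayed 22.5 points above the P2 sites and 19.3 points above the all-4 sites. The P2 share minus the all-4 share, -2.23 points, and the P1 share minus the TKO-alone share, 3.68 points, no longer passed.

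Within promoters the 2 kinds were closer in composition. Promoter P1 sites had a median GC content of 65.2% and promoter P2 sites 63.7%, and distal sites had 58.5% and 55.7%, all in TKO replicate 1. The CpG-rich makeup of P1 sites and the CpG-poor makeup of P2 sites went with the GC content of the 2 parental lists as a whole, given above, and the part of the library in it was not tested.

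**Figure D4:**
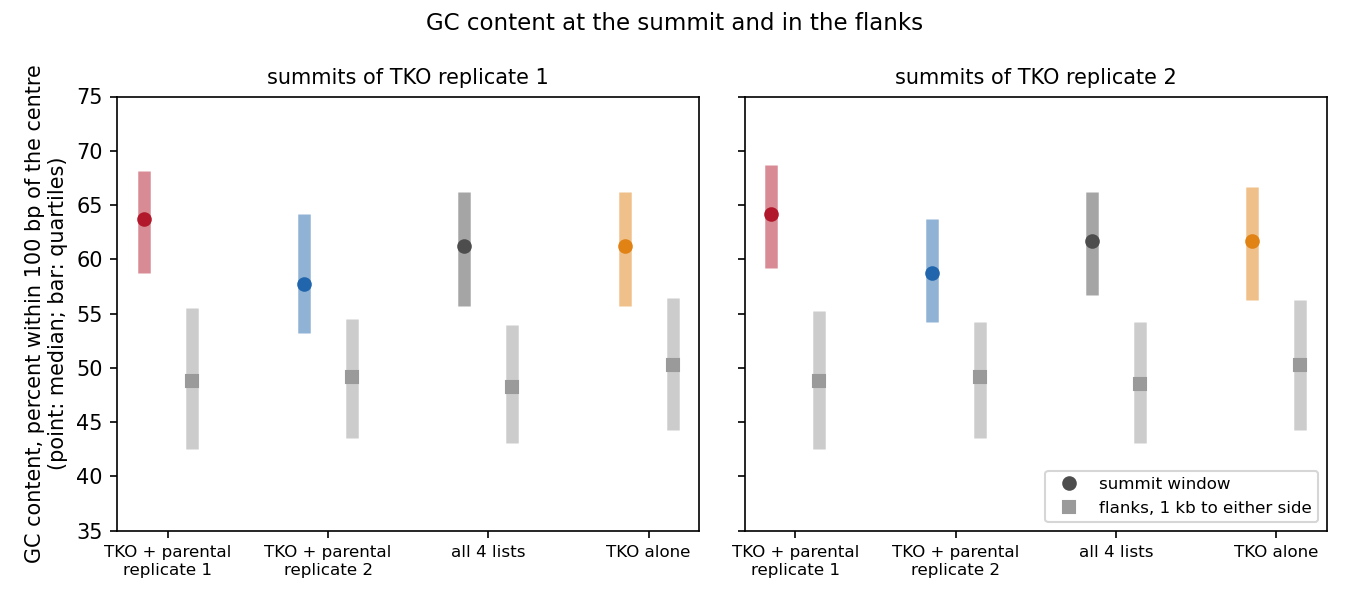
GC content (vertical axis, percent within 100 bp) at the TKO summit and in flanking windows 1 kb away, with the median as a point and the quartiles as a bar, for each class and TKO list. At the summits of TKO replicate 1 the P1 median of 63.7% is the highest and the P2 median of 57.7% the lowest, while the flank medians are at 50.3% or below.

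The E-box did not separate the 2 kinds of member by a difference that passed the test in both TKO lists. CACGTG lay within 50 bp of the TKO summit at 99 of 699 P1 sites (14.2%) and 210 of 1796 P2 sites (11.7%) in TKO replicate 1, and at 84 (12.02%) and 200 (11.1%) in TKO replicate 2. Flanking windows of the same length held it at 1.14% to 1.87%, and over all 62528 peaks of the 4 lists the share was 9.86%. The differences of 2.47 and 0.881 points did not pass Fisher's exact test (adjusted p = 0.107 and 0.528), and their intervals, from -0.388 to 5.59 and from -1.81 to 3.84 points, leave room for a difference in either direction. The P1 share minus the P2 share turned to -0.635 points at matched strength. It passed with the summit of the parental peak in place of the TKO summit, at 3.64 points higher in P1 sites, and without TKO replicate 2, at 3.02 points higher.

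Both kinds of member held the E-box less often than all-4 sites and more often than TKO-alone sites. All-4 sites had it at 23.5% and 22.1% of TKO summits, and the differences from it were -9.36 and -10.1 points for P1 sites and -11.8 and -10.95 points for P2 sites (largest adjusted p = 4.75e-08, Fisher's exact test). TKO-alone sites had it at 7.42% and 6.34%, so P1 sites were 6.74 and 5.68 points higher and P2 sites 4.27 and 4.80 points higher (largest adjusted p = 9.5e-08, Fisher's exact test). At matched strength the P1 sites were 2.71 points above TKO-alone sites, which did not pass. The P2 sites were 3.0 points above them, which did. Where an E-box was present, it sat a median of 24.0 bp from the TKO replicate 1 summit at P1 sites and 20 bp at P2 sites, against 18.0 bp at all-4 sites.

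The AP-1 motif differed between the 2 kinds of member. It was found at 27 P1 sites (3.86%, 2.56 to 5.57) and 233 P2 sites (13.0%, 11.45 to 14.6) in TKO replicate 1, and at 32 (4.58%) and 204 (11.4%) in TKO replicate 2. Flanks held it at 1.00% to 1.81%, and all peaks at 8.24%. The P1 share minus the P2 share was -9.11 points (-11.1 to -6.86) in TKO replicate 1 and -6.78 points (-8.82 to -4.50) in TKO replicate 2 (adjusted p = 1.15e-12 and 5.81e-08, Fisher's exact test). All-4 sites had it at 7.22% and 6.84%, and TKO-alone sites at 7.69% and 6.96%. P2 sites were above all-4 sites by 5.75 and 4.52 points and above TKO-alone sites by 5.28 and 4.40 points, and P1 sites were below both classes, with a largest adjusted p of 0.0308. The P1 calls were lost against all-4 sites at a fold of at least 5 and against TKO-alone sites at matched strength (adjusted p = 0.0546 by Fisher's exact test and 0.136 by the Mantel-Haenszel test). Without TKO replicate 1 the P1 share minus the TKO-alone share was -1.88 points, against -3.10 with both lists.

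AP-1 was a motif of distal sites in both kinds. Promoter summits had the motif at 1.91% of P1 and 2.69% of P2 sites in TKO replicate 1. Distal summits, over 1 kb from a start site, had it at 17 of 176 P1 sites (9.66%, 5.73 to 15.0) and 217 of 1200 P2 sites (18.1%, 15.9 to 20.4). Among distal sites alone the P1 share minus the P2 share was -6.83 points, with adjusted p = 0.134 by Fisher's exact test in the weaker list, so the call was lost where only 176 P1 sites remained. P2 sites were still 4.55 points above TKO-alone sites there (adjusted p = 0.000456, Fisher's exact test) and 1.96 points above all-4 sites, which did not pass (adjusted p = 0.505). At matched strength the P2 sites were 6.72 points above the P1 sites, which passed, and 2.0 points above all-4 sites, which did not.

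**Figure D5:**
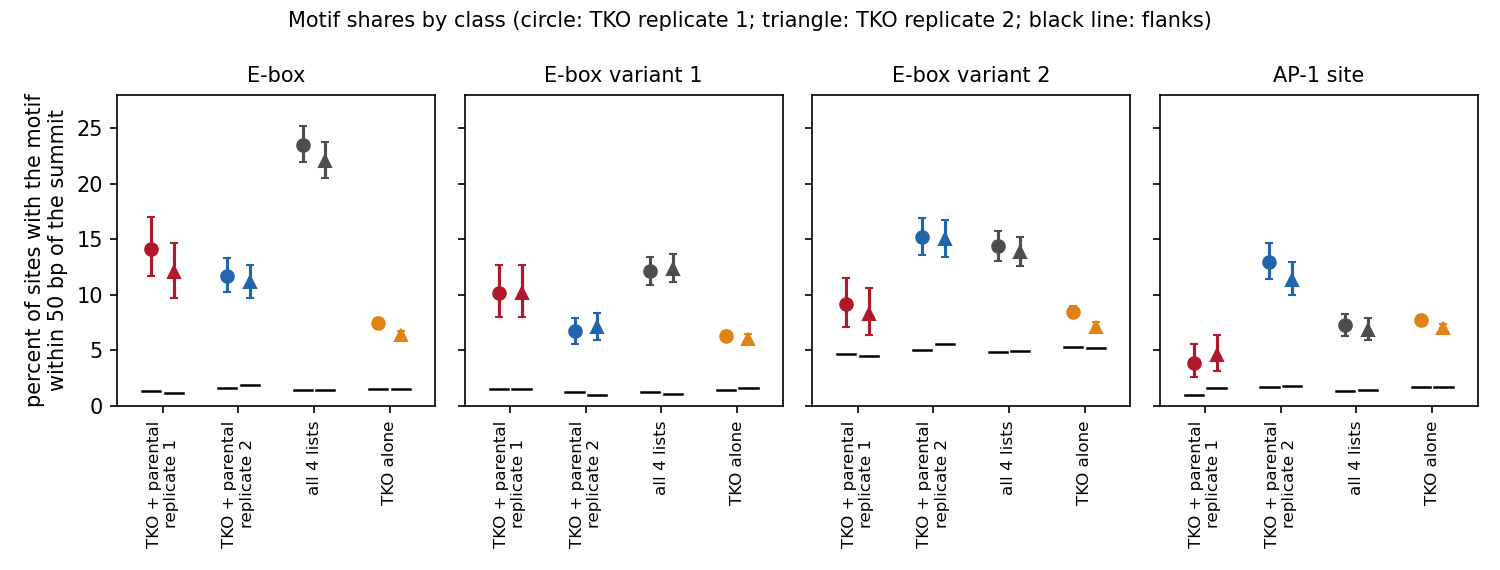
Percent of sites with a motif within 50 bp of the TKO summit (vertical axis, bars for 95% Clopper-Pearson intervals) for the E-box CACGTG, the E-box variants CACGCG (variant 1) and CATGTG (variant 2) and the AP-1 site, with the share in flanks as black lines. The P1 and P2 sites are close for the E-box (14.2% and 11.7% in TKO replicate 1), while AP-1 is at 3.86% of P1 and 13.0% of P2 sites.

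The E-box variants differed in which kind of member held them more often. CACGCG, which holds a CpG at its end, was found at 10.2% of P1 sites and 6.68% of P2 sites in TKO replicate 1, beside 12.1% of all-4 and 6.29% of TKO-alone sites. CATGTG, which lacks a CpG, was found at 9.16% of P1 and 15.2% of P2 sites, beside 14.4% of all-4 and 8.47% of TKO-alone sites. All peaks held these motifs at 6.47% and 10.4%, and all flanks at 1.31% and 5.22%. Among distal sites CATGTG was at 21.6% of P1 and 20.1% of P2 summits, and among promoter sites at 4.97% and 5.37%. CACGCG was at 10.2% of P1 and 4.17% of P2 distal summits, and at 10.1% and 11.7% of promoter summits, where the order of the 2 kinds was the other way. No test was run on these variants or on the motifs named next.

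Motifs of other factors are given as shares over all sites of each kind. The GC box GGGCGG was at 22.2% of P1 and 14.4% of P2 sites in TKO replicate 1, with 16.0% over all peaks and 7.17% over all flanks. The ETS motif CCGGAAGT was at 2.15% and 1.39%, with 1.41% over all peaks. GGAATG, which TEAD factors bind, was at 5.15% and 10.0%, with 7.45% over all peaks and 5.25% over flanks, so P1 sites were at the level of the flanks. TGTGGTT, which RUNX factors bind, was at 2.15% and 3.95%, with 2.97% over all peaks. CCAAT was at 8.16% and 8.24%, below the 11.7% of all flanks. TGACGTCA was at 0.572% and 0.445%. Each motif was counted on both strands. Neither an E-box nor an AP-1 motif was found at 577 P1 sites (82.6%) and 1372 P2 sites (76.4%). Both lay at the same summit at 4 P1 and 19 P2 sites, where they shared bases at 1 site of each kind.

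The members named next are the strongest of each kind. The P1 site of highest rank in TKO lay at RPL14, a protein of the large ribosomal subunit. Its fold was 6.45 on 45 summit reads in parental replicate 1, 27.3 on 98 reads in TKO replicate 1 and 24.1 on 69 reads in TKO replicate 2, with no peak in parental replicate 2. The summit was 55 bp from the start site. The P1 site at RAD50, shown above with its E-box, had folds of 2.94 on 41 reads, 20.1 on 84 reads and 22.8 on 82 reads in the same 3 lists. In that parental list it was at percentile 1.18 by fold and in TKO at 99.0 and 99.5, each within a list of its own length. By summit reads the parental peak was above the list's median of 33.0.

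Other P1 sites of this rank lay at SRCAP, a chromatin remodelling ATPase, at ZNF195, a zinc finger protein, and at SYNCRIP, an RNA-binding protein. The SRCAP site had folds of 3.68, 17.9 and 21.4 and the ZNF195 site 3.68, 21.3 and 16.5 in parental replicate 1 and TKO replicates 1 and 2. SYNCRIP had the highest parental fold of these P1 sites, 11.3, with 19.9 and 16.7 in TKO. IREB2, an iron-responsive RNA-binding protein, had folds of 7.02, 18.1 and 18.5 at a summit 257 bp from its start. The site nearest to FAM156B, with folds of 5.48, 18.8 and 21.9, is uncertain because a near-identical copy of that gene exists.

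The strongest P2 site lay 309 bp from the start of ANP32B, a histone chaperone. Its fold was 10.3 on 31 reads in parental replicate 2, 25.6 on 80 reads in TKO replicate 1 and 22.5 on 57 reads in TKO replicate 2. SINHCAF, a subunit of a SIN3 corepressor complex, followed with folds of 4.79, 21.8 and 19.5, and TSC22D1, a transcriptional regulator, with 4.81, 24.1 and 18.1. The GSE1 and USP3 sites, both shown above with an E-box, had folds of 8.92, 18.2 and 18.0 and of 5.21, 18.1 and 17.2. The site nearest to HMGN2, a nucleosome-binding protein, was 28407 bp from its start and had folds of 9.43, 17.0 and 19.4. INO80C, a chromatin remodelling subunit, and RNF138, a ubiquitin ligase, had parental folds of 4.77 and 7.32 and TKO folds of 16.3 to 19.6. Of the 8 strongest sites, 6 P2 and 7 P1 sites had no E-box within 50 bp of the summit.

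Promoter members touched 596 protein-coding genes through P1 sites, 3.01% of 19785 genes, and 690 genes through P2 sites, 3.49%. Both kinds were found at 12 genes. A promoter all-4 site was also present at 33 of the P1 genes and 31 of the P2 genes, and at 9.33% of all genes. Overlapping peaks at a promoter are merged into 1 site of 1 class, so the rule itself limits such overlaps and nothing is read from them. Since some promoters face each other, 70 of 524 P1 promoter sites and 93 of 604 P2 promoter sites were assigned to 2 or more genes.

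Most genes of the cytosolic ribosome had all-4 sites. Of 79 such genes 72 had an all-4 site, 7 a TKO-alone site and 6 a P1 promoter site (7.59%), against 3.01% of all genes. None had a P2 site, against 3.49% of all genes. With 79 genes at such a share, nothing particular to this group is read from the absence. A promoter site of any of the 4 classes was at 77 of the 79 genes, against 8769 of 19785 genes. The P1 share is therefore not read as raised. The P1 genes included RPL14, RPL27A, RPL28, RPS27 and RPS29. At RPS27 the fold was 2.81 on 39 reads in parental replicate 1, at percentile 0.712 of that list, and 11.7 on 77 reads and 7.86 on 40 reads in TKO replicates 1 and 2. At RPS29 it was 4.77, 11 and 10.4. RPL27A went another way, with a fold of 7.31 in parental replicate 1 and 5.05 and 6.39 in TKO. Its summit nonetheless held 43 parental and 57 TKO replicate 1 reads. The parental peak (chr11:8704064-8704459) and the TKO replicate 2 peak (chr11:8704582-8704933) did not overlap and were joined by the TKO replicate 1 peak. Those folds were therefore read at different places. RPL28 had folds of 4.09, 6.71 and 5.58.

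The nucleolar genes and the aminoacyl-tRNA synthetases, which charge tRNAs, mostly had all-4 or TKO-alone sites. Of 20 nucleolar genes, 17 had an all-4 site, 2 had a P1 site and none a P2 site. The P1 sites were at FBL, the methyltransferase fibrillarin, with folds of 6.57, 13.5 and 12.6, and at UTP20, a factor of small-subunit processing, with 3.79, 11.1 and 8.88. Of 37 synthetases 19 had an all-4 site and 15 a TKO-alone site. KARS1, the lysyl-tRNA synthetase (6.40, 14.5 and 11.5), and QARS1, the glutaminyl-tRNA synthetase (5.27, 5.65 and 11), had P1 sites and none had a P2 site. The P1 shares were 10.0% of nucleolar genes and 5.41% of synthetases, on 2 genes each, against 3.01% of all genes. A promoter site of any class was at 20 of 20 nucleolar genes and 36 of 37 synthetases, against 8769 of 19785 genes. The P1 shares are therefore not read as raised. With 3.49% of all genes having a P2 site, lists of 20 and 37 genes without one are near that share, and nothing particular to these groups is read from it.

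Mitochondrial ribosomal proteins were touched by both kinds. Of 78 genes 10 had a P1 site (12.8%), 5 a P2 site (6.41%), 22 an all-4 site and 40 a TKO-alone site. The shares over all genes were 3.01% for P1 and 3.49% for P2 sites. A promoter site of any of the 4 classes was at 75 of the 78 genes, against 8769 of 19785 genes. The shares over all genes thus include many genes without a site, and the P2 share is not read as raised. The P1 genes were MRPL12, MRPL13, MRPL30, MRPL32, MRPL38, MRPL51, MRPL52, MRPL57, MRPL58 and MRPS2, and MRPS2 had 2 such sites. At MRPL52 the folds were 3.37 in parental replicate 1 and 10.7 and 9.83 in TKO, while at MRPL58 they were nearly level, at 4.83, 4.85 and 4.78. The P2 genes were MRPL54, MRPS14, MRPS23, MRPS28 and MRPS34. MRPL54 had a fold of 4.11 in parental replicate 2 and of 13.3 and 10.8 in TKO. None of the 15 genes had an E-box at its member summit. Among all promoter sites in TKO replicate 1, the E-box was at 13.4% of P1 and 9.06% of P2 sites. Nothing particular to these genes is read from its absence.

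Of 56 EIF genes, which include the translation initiation factors, 9 had a P1 site (16.1%), 6 a P2 site (10.7%) and 23 an all-4 site. The shares over all genes were 3.01% and 3.49% for P1 and P2 sites. A promoter site of any class was at 48 of the 56 genes, against 8769 of 19785 genes. EIF4B, which helps the helicase EIF4A, had folds of 4.83 in parental replicate 1 and 13.0 and 16.2 in TKO. Its TKO replicate 1 summit, with an E-box, was at 53400995, outside the parental peak at chr12:53400134-53400402. EIF4A3, EIF2AK3, EIF3J and EIF5A2 also had P1 sites with an E-box. EIF3C, EIF3CL, EIF4H and EIF5B had P1 sites without an E-box, and no P2 site of an EIF gene held it. Among all promoter sites in TKO replicate 1, the E-box was at 13.4% of P1 and 9.06% of P2 sites. No test was run on these genes. The P2 genes included EIF4EBP1, a repressor of cap-dependent translation, with folds of 6.18 in parental replicate 2 and 11.2 and 11.3 in TKO. At EIF4EBP1 the quoted parental and TKO replicate 1 peaks did not overlap and were joined by the TKO replicate 2 peak. EIF5A, also a P2 gene, had folds of 3.77, 8.73 and 9.13. EIF3J had both a P1 and a P2 site, at summits 509 and 586 bp from a start site. The P1 sites of EIF3C and EIF3CL are uncertain, because these genes are near-identical copies.

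Broader gene series were touched by both kinds. Zinc finger genes of the ZNF series had a P1 site at 19 (3.71%) and a P2 site at 30 (5.86%) of 512 genes. Genes of the SLC transporter series had them at 7 (1.88%) and 14 (3.75%) of 373. Beside the 3.01% and 3.49% of all genes, the ZNF share of P1 sites and the SLC share of P2 sites were near the background. A promoter site of any class was at 324 of 512 ZNF genes and 147 of 373 SLC genes, against 8769 of 19785 genes. No other share is read as raised or lowered. The P2 list of transporters included SLC2A1, the glucose transporter GLUT1, whose fold was 5.06 on 17 reads in parental replicate 2, 4.10 on 14 reads in TKO replicate 1 and 7.85 on 22 reads in TKO replicate 2, and SLC7A1, a carrier of cationic amino acids, with folds of 6.69, 11.4 and 11.3. SLC12A2, an ion cotransporter with a P1 site, had folds of 6.11, 12.9 and 13.7. None of 391 olfactory receptor genes had a member site, nor had they an all-4 or TKO-alone site.

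AP-1 factors and genes of the basal and mesenchymal state were near members mostly at a distance. FOSL1, a FOS family protein, had a P1 promoter site with folds of 5.06, 11.6 and 13.6. Of 995 P2 sites 1 to 100 kb from a start site, 4 (0.402%) had JUN, JUND, FOSL1 or FOSL2 as their nearest gene, and 3 of these held an AP-1 motif. Of 150 P1 sites at such distances there were none, which allows a share of up to 2.0%. All-4 sites had 0.642% and TKO-alone sites 0.334%. The P2 site near JUN was 64929 bp away, with folds of 6.66 in parental replicate 2 and 8.14 and 8.64 in TKO.

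Among 30 basal and mesenchymal genes, ITGB1, an integrin, and S100A2, a calcium-binding protein, had a P1 promoter site, and CD44, a hyaluronan receptor, and CAV1, the caveolin of caveolae, had a P2 promoter site. CD44 had folds of 3.71 in parental replicate 2 and 9.73 and 8.52 in TKO. P2 sites at the same range of distances were nearest to 9 of these genes, 1 site each, which is 0.905% of 995, against 0.667% of 150 P1 sites, 0.321% of all-4 and 0.584% of TKO-alone sites. The genes included ZEB2, SNAI1, ITGA5, ITGB1, ITGB4, PLAU, MMP14 and EGFR. At the EGFR site, 30552 bp from the start of this growth factor receptor gene, folds were 4.66 on 27 reads in parental replicate 2 and 6.51 on 37 reads and 7.67 on 35 reads in TKO.

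Among the genes that the study showed or tested singly, MYC was the only one with a member site. Its P2 site had a fold of 3.37 on 26 reads in parental replicate 2, 3.13 on 35 reads in TKO replicate 1 and 4.18 on 23 reads in TKO replicate 2, at percentiles 5.84, 3.49 and 14.8 of those lists. MYC also had TKO-alone sites 66 and 1267 bp from a start site. The nearer of these had folds of 6.30 and 6.22 in TKO replicates 1 and 2, at percentiles 65.2 and 61.0. RPL10A, SLC18B1, G0S2, TOMM5, SLC20A1 and RPS21 had an all-4 site within 5 kb of a start site. The SLC18B1 all-4 site was 967 bp from a start site of that gene, with another protein-coding start site nearer, at 263 bp. TKO-alone sites lay 163 and 497 bp from SLC18B1 start sites, closer than its all-4 site. Other TKO-alone sites lay 62 and 4958 bp from SLC20A1 and 4159 bp from RPS21 start sites. NUP43 had TKO-alone sites, and TXNIP had no site of these classes.

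The balance of the 2 kinds is given by chromosome as a description, with no test. P1 sites made up 28.02% of all members, and the interval included that share on every chromosome with members except 1, 4 and 6. On chromosome 6 they made up 15.3% of 163 members (10.2 to 21.8), and on chromosome 1 34.7% of 239 (28.7 to 41.1). The lowest share, 15.0%, was on chromosome 21 with 40 members (5.71 to 29.8) and the highest, 37.8%, on chromosome 22 with 45 (23.8 to 53.5), so their intervals met. Members made up between 10.0% (chromosome 22) and 17.0% (chromosome 20) of the sites in both TKO lists on the chromosomes that had any.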

How the data were processed

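MDA-MB-231 cells (parental) and a TXNIP-knockout derivative (TKO) each had 2 Myc ChIP-seq libraries and 1 input library. Sample titles gave the groups and replicate numbers. Single-end reads had been mapped by the authors to hg19 (Novoalign 3.08.02) and called peaks in each library with MACS2 (2.1.1.20160309, p-value cutoff 0.01 in the methods). The deposited lists nonetheless end at −log10 q-values of 2.03 to 2.07, as a q-value cutoff would leave them. Each deposited peak has a score, the authors' fold (the ratio of reads at the summit to those of the local background) and the deposited −log10 p-value and −log10 q-value. Duplicate handling is not given in the sources used here.

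Members and gene lists were chosen with earlier results of these data known. Peaks overlapping by 1 bp were merged, and a site was read at its peak of highest fold in each list. The peaks quoted for 1 site therefore need not overlap each other. Summit reads were solved from fold and p-value. In parental replicate 1, 99.9% of peaks gave a whole number within 0.01 of the −log10 p-value, and in the other lists 100% did, at an assumed genome size of 2700000000. Sequence and annotation came from GRCh37 with GENCODE v44, and 0 peaks ended beyond it. Promoters lay within 1 kb of a protein-coding start site. Windows reached 100 bp from the summit for GC content and 50 bp for motifs.

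Classes were compared within each TKO list by two-sided Fisher's exact tests, adjusted by the Benjamini-Hochberg method over 40 tests, and called where both lists passed 0.05. Intervals were Clopper-Pearson for shares and Newcombe for differences. Matched differences were Mantel-Haenszel over 10 strata of fold. Named sites were the 8 P1 and 8 P2 sites of highest mean percentile in TKO outside chromosome 8, beside genes of the study and of fixed lists. Some genes that these rules name are not reported here. Printed sequences were those of highest rank with each motif, also outside chromosome 8, whose sequence is not printed. Alternatives were stricter peaks, equal list lengths, other windows, merging by summits, distal sites and each TKO list left out. Tools were samtools 1.23.1, pysam 0.24.0, scipy 1.17.1, pandas 2.3.3, matplotlib 3.10.9 and numpy 2.4.6 in Python 3.11.15, and the steps were tested on simulated data.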

Additional observations from a re-analysis of the deposited data

How the results depend on the processing

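Values are means of the TKO lists, in percentage points for differences. No paired analysis was possible because the classes are made from all 4 lists together and no value exists per replicate number. Leaving out a parental list leaves no such class. Requiring a fold of at least 5 gave 802 P2 sites, and parental lists of equal length gave 1192 P1 and 913 P2 sites. The E-box difference of P1 from P2 sites, 1.68, ranged from 1.49 to 3.02 with a TKO list left out, was 3.64 at the parental summit and -0.635 at matched strength. Differences that no longer passed at matched strength were -2.23 (GC-rich, P2 from all-4), 3.68 (GC-rich, P1 from TKO-alone), 2.71 (E-box, P1 from TKO-alone), 2.0 (AP-1, P2 from all-4) and -1.70 (AP-1, P1 from TKO-alone). Among distal sites they were -6.83 (AP-1, P1 from P2), -4.88 (P1 from all-4), 1.96 (P2 from all-4) and -2.28 (P1 from TKO-alone), with 176 P1 sites. A fold of at least 5 gave -2.52 (AP-1, P1 from all-4) and a GC threshold of 50% gave -2.21 (GC-rich, P2 from all-4), with other GC-rich differences of 6.18 (P1 from P2), 3.97 (P1 from all-4), 2.38 (P1 from TKO-alone) and -3.80 (P2 from TKO-alone) that still passed. Without TKO replicate 1, AP-1 of P1 from TKO-alone was -1.88. The cause was not tested. Of the other values, 231 kept their direction and their side of the threshold, or a count within 1.5 times, although their size could move. With 2 lists per group, no test over libraries was made. Depth limits sites near the weakest listed peaks, which stood on 7 to 13 reads.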
